A study of Bos taurus with 4 samples.

Results

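Aminoacyl-tRNA synthetases are the enzymes that join each amino acid to its transfer RNA, and their transcripts were measured here in bovine blastocysts. The genes were chosen by name, from a list of 38 genes that holds 19 cytosolic enzymes or subunits, 16 mitochondrial enzymes (symbols that end in 2) and 3 proteins without enzyme activity that scaffold the multi-synthetase complex. A probe was taken where the platform annotation gives a gene's symbol or its older name without the final 1. In all, 50 of 43794 probes for bovine transcripts carried such a name, for 31 of the 38 genes: 16 cytosolic, 12 mitochondrial and 3 complex proteins. AARS2, EARS2, EPRS1, HARS2, QARS1, VARS1 and VARS2 had no probe with their name and were not analysed here. Of the 50 probes, 46 passed a filter on dim probes and were among the 36447 tested. For each of the 31 genes the brightest probe on average over both channels was used, and all 31 of these probes passed the filter.

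The samples were pools of early blastocysts of Holstein cattle (Bos taurus), collected 168 hours after in vitro fertilization, from oocytes of heifers at a donor age of 14 months and from oocytes of the same heifers at 11 months. All donors received progesterone and FSH before oocyte collection, in vitro maturation, fertilization and culture were used for all embryos, and, per the series design, the semen came from adult bulls. On each of the 4 arrays, which read 2 dyes, the pools of 1 heifer at both ages were hybridised together. The replicates 1 to 4 are therefore 4 heifers. The p-values set a mean against the spread between these heifers, which limma draws toward the spread typical of all tested probes. A p-value thus does not rest on the 4 values of its probe alone. The 14-month pool carried Cy3 in replicates 1 and 2 and Cy5 in replicates 3 and 4. According to the title, the study asked about embryo quality in donors around puberty. How many embryos a pool held is not stated in the labels, and the collection at 14 months always followed that at 11 months in the same animal, so that donor age and time of collection cannot be told apart.

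A synthetase activates its amino acid with ATP and transfers it to the matching tRNA, which the ribosome then uses. Most cytosolic enzymes and their mitochondrial counterparts are products of separate nuclear genes, while GARS1 and KARS1 serve both compartments from 1 gene each. Several cytosolic enzymes sit in a large multi-synthetase complex held together by AIMP1, AIMP2 and EEF1E1. In mouse and human cells the transcription factor ATF4, which is made when amino acids are short, induces many of the cytosolic synthetase genes. The blastocyst is a stage at which the embryo makes its own transcripts and protein synthesis is high.

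Values below are the authors' deposited log2 ratios of the 11-month over the 14-month pool of a heifer, so that a negative value is a higher signal at 14 months, and errors are SDs over the 4 heifers (n = 4). On the 4 arrays, 62.6% to 75.9% of all probes lay above the negative control limit in the 14-month pools and 64.5% to 73.0% in the 11-month pools. Arrays stood together by dye: over the 36447 tested probes, Pearson's r of the ratios was 0.56 for the pair with the 14-month pool in Cy3 and 0.31 for the pair with it in Cy5, and -0.17 to 0.12 across orientations. All 7 trophectoderm markers and all 5 inner cell mass markers checked were above the limit in both pools of every heifer. The same held for 2 of 4 primitive endoderm markers, 2 of 8 cumulus and granulosa markers and 0 of 6 sperm markers. Only 2 of the 8 cumulus and granulosa markers and 2 of the 6 sperm markers were above it in no pool, so that these cells are not shown to be absent. The trophectoderm markers had medians of 0.32, 0.41, 0.06 and -0.13 in replicates 1 to 4, the inner cell mass markers -0.02, -0.02, 0.30 and 0.06, with NANOG alone at a mean of 1.12 ± 0.37. Their part in the synthetase values was not tested, and in pooled embryos fewer cells of a type and less RNA per cell cannot be told apart.

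Of the 31 members, 6 were higher at 14 months at an unadjusted p under 0.05: the cytosolic TARS1, MARS1, CARS1, FARSB and GARS1 and the mitochondrial MARS2. No member was higher at 11 months at that limit. The ratios of the 6 genes lay between -0.42 and -0.34, or 1.27 to 1.34-fold higher at 14 months. None passed Benjamini-Hochberg adjustment over all tested probes in limma, where the lowest adjusted p among the 31 genes was 0.423, for FARSB. Over all tested probes 5.11% were higher at 14 months at the same unadjusted limit and 4.09% were higher at 11 months, and 0.00% passed the adjusted one. With 1 probe per named gene, the shares were 4.21% of 13519 genes higher at 14 months and 5.13% higher at 11 months. The count of 6 depended on the heifers: it was 0 without replicate 2, 1 without replicate 3, 4 without replicate 1 and 7 without replicate 4. Without replicate 1, and likewise without replicate 4, AIMP1 was higher at 11 months at that limit. The count was 1 when the scanner signals were centred on the median of each array, and 0 when the pools were treated as unpaired. With median centring the ratios of the 6 genes were -0.45 to -0.37, but the median ratio of the mitochondrial enzymes fell too, from 0.03 to -0.03. Treating the pools as unpaired leaves the ratios as they were by construction and can change only the p-values. By sign alone, 4 of the 31 genes were higher at 14 months in every heifer, against 7.82% of all tested probes, and 2 were higher at 11 months in every heifer, against 8.84%.

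**Figure D1:**
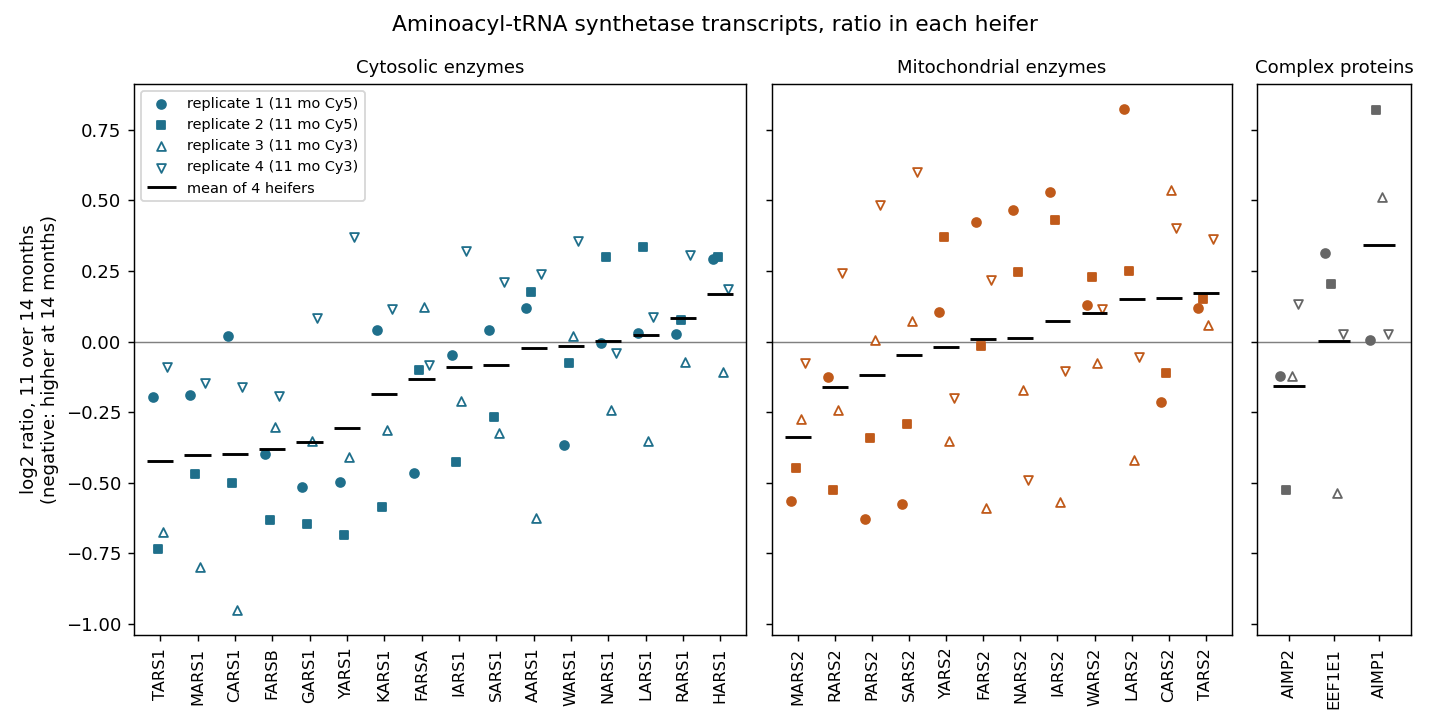
Log2 ratios (vertical axis, 11 over 14 months, no unit) of the 31 genes in each heifer, in panels for cytosolic enzymes, mitochondrial enzymes and complex proteins; filled symbols are arrays with the 11-month pool in Cy5, open symbols those with it in Cy3, and bars are means of 4 heifers. The means of the cytosolic enzymes reach from -0.42 for TARS1 to 0.17 for HARS1, and those of the mitochondrial enzymes from -0.34 for MARS2 to 0.17 for TARS2.

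FARSB, the beta subunit of the enzyme that charges phenylalanine, had the smallest p of the family. Its log2 ratios were -0.40, -0.63, -0.30 and -0.19 in replicates 1 to 4. Its log2 probe signals, normalized within each array from the scanner files, were 13.27, 13.11, 13.12 and 13.14 in the 14-month pools, against 12.84, 12.51, 12.82 and 12.87 in the 11-month pools. All 4 heifers had the higher signal at 14 months, and the signals of the pools of the 2 ages did not overlap. Signals were not scaled between arrays and FARSB was picked for its small p, so that the lack of overlap is only a description. The mean ratio was -0.38 ± 0.19, or 1.302-fold higher at 14 months, with an adjusted p of 0.423 in limma. It was the only one of the 6 genes that kept an unadjusted p under 0.05 without replicate 3, and it also did so with median centring, but not without replicate 2. FARSA, the alpha subunit of the same enzyme, was at -0.47, -0.10, 0.12 and -0.08, with a mean of -0.13 ± 0.25 and an adjusted p of 0.847 in limma. A dimmer second probe of FARSA was at -0.003 ± 0.22.

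TARS1, which charges threonine, had the lowest mean ratio of the family. Its ratios were -0.20, -0.73, -0.67 and -0.09 in replicates 1 to 4. The log2 signals were 11.11, 11.21, 11.15 and 10.79 in the 14-month pools, against 10.84, 10.45, 10.59 and 10.72 in the 11-month pools. The sign was the same in all 4 heifers, and the higher signal at 14 months was largest in replicates 2 and 3, while the 11-month pool of replicate 1 lay above the 14-month pool of replicate 4. The mean was -0.42 ± 0.33, or 1.34-fold higher at 14 months, with an adjusted p of 0.443 in limma.

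MARS1, the cytosolic methionine enzyme, was at -0.19, -0.47, -0.80 and -0.15 in replicates 1 to 4. Its log2 signals were 9.60, 9.48, 9.48 and 8.95 in the 14-month pools, against 9.37, 8.96, 8.76 and 8.83 in the 11-month pools. All 4 heifers were higher at 14 months, while the ranges overlapped, since the 14-month pool of replicate 4 lay below the 11-month pools of replicates 1 and 2. The mean was -0.40 ± 0.30, with an adjusted p of 0.453 in limma. MARS2, the methionine enzyme of mitochondria, was the 1 mitochondrial gene of the 6. Its ratios were -0.56, -0.45, -0.27 and -0.07, and its log2 signals 9.47, 9.16, 9.06 and 9.49 in the 14-month pools against 8.88, 8.65, 8.84 and 9.43 in the 11-month pools. Here too every heifer was higher at 14 months, replicate 4 had the smallest difference, and the ranges of the ages overlapped. The mean was -0.34 ± 0.21, with an adjusted p of 0.484 in limma.

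CARS1, the cysteine enzyme, and GARS1, the glycine enzyme of both compartments, did not have 1 sign in all heifers. CARS1 was at 0.02, -0.50, -0.95 and -0.16, with log2 signals of 10.27, 10.36, 10.10 and 9.72 in the 14-month pools against 10.21, 9.83, 9.21 and 9.57 in the 11-month pools. Replicate 1 was near 0, with the other sign in the scanner signals, and replicate 3 had the lowest ratio of any member in any heifer. The mean was -0.40 ± 0.43, with an adjusted p of 0.527 in limma, and -0.21 without replicate 3. GARS1 was at -0.51, -0.65, -0.35 and 0.08, with log2 signals of 12.99, 12.94, 12.21 and 12.21 in the 14-month pools against 12.41, 12.35, 11.92 and 12.20 in the 11-month pools. Replicates 1 to 3 were higher at 14 months and replicate 4 was near 0 in the deposited ratio and in the scanner signals, with a different sign in each. Its mean was -0.36 ± 0.32, with an adjusted p of 0.513 in limma. For both genes the signal ranges of the ages overlapped.

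**Figure D2:**
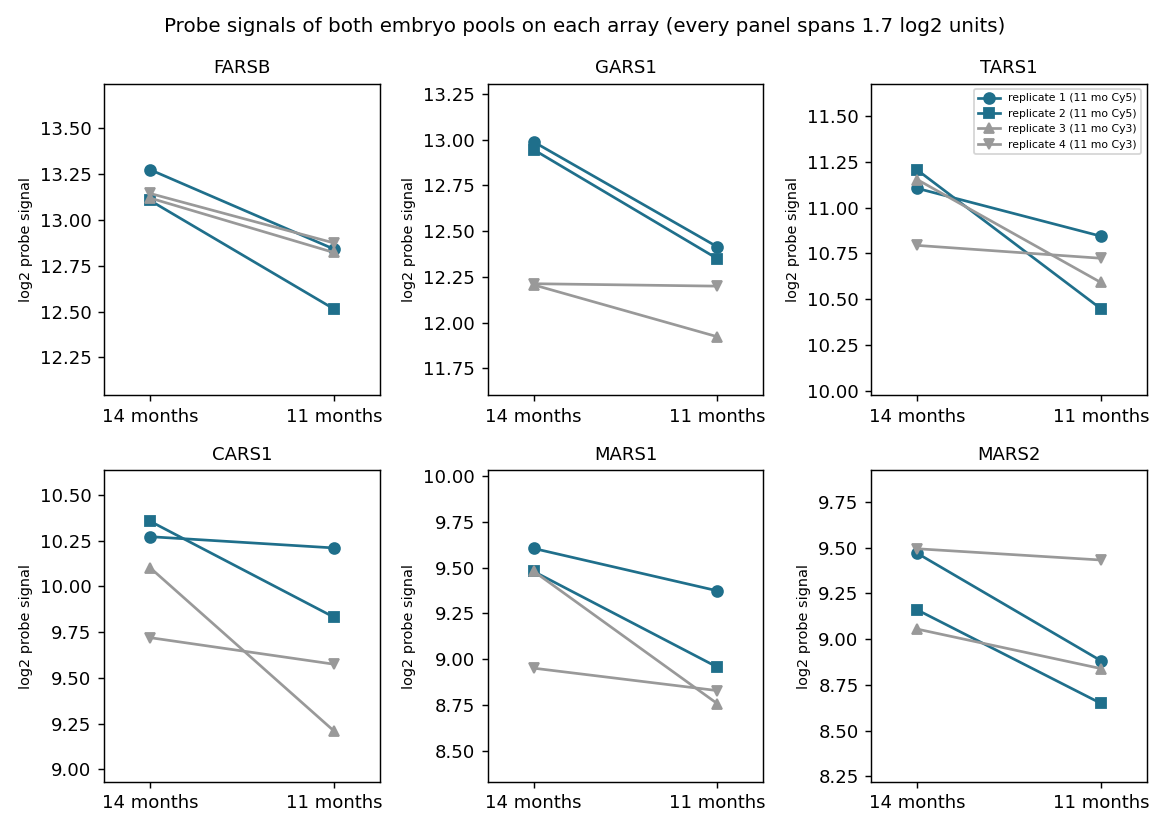
Log2 probe signals (vertical axis, normalized within each array from the scanner files) of FARSB, GARS1, TARS1, CARS1, MARS1 and MARS2 in the 14-month pool (left) and the 11-month pool (right) of each heifer; a line joins both pools of 1 array, blue for replicates 1 and 2 and grey for replicates 3 and 4. Each line runs down toward 11 months, with differences of -0.59 to -0.27 for FARSB and of -0.01 for GARS1 in replicate 4.

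The other 11 cytosolic genes had means between -0.30 and 0.17, none with an unadjusted p under 0.05. YARS1, the tyrosine enzyme, was at -0.50, -0.68, -0.41 and 0.37, a mean of -0.30 ± 0.46 with an adjusted p of 0.670 in limma. Without replicate 4 its unadjusted p was under 0.05. KARS1, the lysine enzyme of both compartments, was at 0.04, -0.58, -0.31 and 0.11, with a mean of -0.19 ± 0.33, and its dimmer probe had a mean of the other sign, 0.12 ± 0.48. IARS1 and SARS1, for isoleucine and serine, had means of -0.09 ± 0.31 and -0.08 ± 0.25. AARS1, WARS1 and NARS1, for alanine, tryptophan and asparagine, had means of -0.02 ± 0.40, -0.02 ± 0.30 and 0.00 ± 0.22. In each of these 5 genes the heifers had both signs.

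The probes of NARS1 disagreed. The brightest was at -0.005, 0.30, -0.24 and -0.04, and a dimmer one was at 0.28, 0.23, 0.31 and 0.45 in replicates 1 to 4. That dimmer probe was higher at 11 months in all 4 heifers, with a mean of 0.32 ± 0.09, an unadjusted p under 0.05 and an adjusted p of 0.470 in limma, and a probe between them in signal was at 0.08 ± 0.26. The direction for NARS1 is therefore not settled.

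At the upper end of the cytosolic enzymes stood HARS1, RARS1 and LARS1, which charge histidine, arginine and leucine. HARS1 was at 0.29, 0.30, -0.11 and 0.19, with a mean of 0.17 ± 0.19 and an adjusted p of 0.770 in limma. RARS1 was at 0.03, 0.08, -0.07 and 0.31, with a mean of 0.08 ± 0.16, and LARS1 at 0.03, 0.34, -0.35 and 0.09, with a mean of 0.03 ± 0.28. In each of the 3 genes only replicate 3 was below 0. Replicate 3 had the most cytosolic enzymes below 0, 14 of 16, against 11 in replicate 2, 9 in replicate 1 and 6 in replicate 4. Of all 13519 named genes, 7080, 6521, 6043 and 6138 were below 0 in replicates 3, 2, 1 and 4.

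Among the 12 mitochondrial enzymes 5 means were below 0 and 7 above it, beside 46.1% of 13519 named genes below 0, so that nothing is read from this count. After MARS2 the lowest were RARS2 and PARS2, which charge arginine and proline. RARS2 was at -0.12, -0.53, -0.24 and 0.24, with a mean of -0.16 ± 0.32. PARS2 was at -0.63, -0.34, 0.01 and 0.48, with a mean of -0.12 ± 0.48, and its probe was above the negative control limit in all 4 of the 14-month pools and in 1 of the 11-month pools, so that its ratio is uncertain. The limit was set for each pool: in replicate 3 both pools had a log2 signal of 6.46, above the limit at 14 months but not at 11 months. The highest were TARS2, CARS2 and LARS2. TARS2, for threonine, was the 1 mitochondrial enzyme higher at 11 months in all 4 heifers, at 0.12, 0.15, 0.06 and 0.36, a mean of 0.17 ± 0.13 with an adjusted p of 0.746 in limma. Its dimmer probes had means of 0.17 ± 0.46 and 0.12 ± 0.26. CARS2, for cysteine, was at -0.22, -0.11, 0.54 and 0.40, with a mean of 0.15 ± 0.37, from a probe above the limit in 4 of the 14-month and 3 of the 11-month pools, and its dimmer probe was at -0.06 ± 0.08. LARS2, for leucine, was at 0.82, 0.25, -0.42 and -0.05, with a mean of 0.15 ± 0.53. The other 6, SARS2, YARS2, FARS2, NARS2, IARS2 and WARS2, had means between -0.05 and 0.10.

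The median 11 over 14 ratio was lower for the cytosolic than for the mitochondrial enzymes in each of the 4 heifers. The median ratio of the 16 cytosolic enzymes was -0.03, -0.35, -0.32 and 0.10 in replicates 1 to 4, and that of the 12 mitochondrial enzymes was 0.11, 0.07, -0.21 and 0.17. The mean of these medians was -0.15 ± 0.22 for the cytosolic enzymes and 0.03 ± 0.17 for the mitochondrial ones, and 0.02 ± 0.03 for the 13519 named genes. Neither of the enzyme means was larger than its spread between heifers. The difference, cytosolic minus mitochondrial, was -0.14, -0.41, -0.11 and -0.07, so that it had 1 sign in all 4 heifers and a mean of -0.18 ± 0.16. It was -0.28 in replicates 1 and 2 and -0.09 in replicates 3 and 4. These medians are a description of the named genes with no test, since genes are not replicates of a donor age. GARS1 and KARS1, which serve both compartments, were counted as cytosolic. The cytosolic probes were also brighter, with a median log2 signal of 10.86 against 8.24, and the part of brightness in the difference was not tested.

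For 10 amino acids a cytosolic enzyme and its mitochondrial counterpart were both measured and could be paired by name. Phenylalanine was measured in both compartments too but was not paired, since its cytosolic enzyme has the subunits FARSA and FARSB. Their means were -0.13 and -0.38, against 0.01 for the mitochondrial FARS2. In 9 of the 10 pairs the cytosolic mean was the lower, but in only 1 of them was it lower in all 4 heifers. For asparagine, serine and methionine the differences were only -0.01, -0.03 and -0.06. For leucine the difference was -0.13 ± 0.45, with the cytosolic ratio lower in 1 heifer only. For isoleucine, at -0.16 ± 0.65, and tryptophan, at -0.12 ± 0.34, it was lower in replicates 1 and 2 and higher in replicates 3 and 4. For threonine, TARS1 minus TARS2 was -0.31, -0.88, -0.73 and -0.45, a mean of -0.60 ± 0.26, with 1 sign in all 4 heifers. For cysteine the difference was -0.55 ± 0.71 and for tyrosine -0.29 ± 0.70, smaller than the spread between heifers. Arginine ran the other way, with RARS1 above RARS2 by 0.15, 0.60, 0.17 and 0.06, a mean of 0.25 ± 0.24. For methionine both enzymes had an unadjusted p under 0.05 and the difference was -0.06 ± 0.37.

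The 3 proteins that hold the multi-synthetase complex together had different signs. AIMP1 was at 0.01, 0.82, 0.51 and 0.03 in replicates 1 to 4, so that the higher signal at 11 months lay in replicates 2 and 3. Those heifers had the lowest cytosolic medians. The mean of AIMP1 was 0.34 ± 0.40, the highest of the 31 genes, with an adjusted p of 0.583 in limma. AIMP2 was at -0.12, -0.52, -0.12 and 0.13, with a mean of -0.16 ± 0.27, and its other probes had means of -0.15 ± 0.51 and -0.33 ± 0.47. EEF1E1 was at 0.31, 0.20, -0.53 and 0.03, with a mean of 0.00 ± 0.38. Among the 5 measured enzymes of the complex, IARS1, KARS1, LARS1, MARS1 and RARS1, 1 was higher at 14 months at an unadjusted p under 0.05, MARS1. Of the 11 measured cytosolic enzymes outside it, 4 were, beside 4.21% of all named genes, and the difference between these counts was not tested. The means of the array medians were -0.15 ± 0.26 and -0.17 ± 0.18.

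Synthetases fall into 2 structural classes with different catalytic folds, and both held genes with an unadjusted p under 0.05. Among the cytosolic enzymes, the 7 of class I had a mean of array medians of -0.13 ± 0.33 with 2 higher at 14 months at an unadjusted p under 0.05, and the 9 of class II one of -0.12 ± 0.19 with 3. The 11 measured enzymes on a list of genes induced by ATF4 in mouse and human cells had medians of -0.05, -0.43, -0.35 and 0.09 in replicates 1 to 4, with 4 of 11 higher at 14 months at that limit, beside 4.21% of all named genes. The 5 not on the list had medians of 0.03, -0.10, -0.11 and 0.11, with 1 of 5, which was FARSB. The median of the gene means had the other order, at -0.09 for the enzymes on the list and -0.13 for those not on it. Which list looks lower thus depends on the summary used. The difference between these lists was not tested.

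Several mitochondrial enzymes differed between the dye orientations. With an orientation term in the fit, 7 of 12 mitochondrial enzymes differed between replicates 1 and 2 and replicates 3 and 4 at an unadjusted p under 0.05 in limma, against 0 of 16 cytosolic enzymes, 0 of 3 complex proteins, 22.4% of all tested probes and 22.3% of named genes. None of the 7 passed adjustment, while 2.38% of all probes did. These counts hold for the brightest probe of each gene. Among the dimmer tested probes, 3 of 7 of cytosolic enzymes (AARS1, KARS1 and WARS1), 2 of 3 of complex proteins (both AIMP2) and 2 of 5 of mitochondrial enzymes (SARS2 and TARS2) differed by orientation at the same limit, so that such differences were seen in all 3 groups. IARS2, LARS2, NARS2 and YARS2 were higher at 11 months in replicates 1 and 2 and at 14 months in replicates 3 and 4. IARS2, for isoleucine, was at 0.53, 0.43, -0.57 and -0.10. SARS2, PARS2 and CARS2 ran the opposite way, SARS2, for serine, at -0.57, -0.29, 0.07 and 0.60. The heifers of the orientations differ too, so that dye and heifer cannot be told apart.

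The probes of the mitochondrial enzymes were dimmer as probes, with mean log2 signals of 6.65 to 10.45 against 7.63 to 13.73 for the cytosolic ones and a negative control limit of 6.50. This compares probe brightness and not transcript levels, and its part in the orientation differences was not tested. Within each orientation, TARS1 was at -0.46 in replicates 1 and 2 and -0.38 in replicates 3 and 4, MARS1 at -0.33 and -0.47, and FARSB at -0.51 and -0.25. CARS1 was at -0.24 and -0.56, GARS1 at -0.58 and -0.13, and MARS2 at -0.51 and -0.17. Since the 6 genes were picked for a low mean over the same 4 arrays, these values are a description and their common sign is no support. With the orientation term, the same 6 genes were higher at 14 months and AIMP1 higher at 11 months at an unadjusted p under 0.05, against 8.85% of all probes higher at 14 months and 7.68% higher at 11 months. After adjustment 373 probes passed, or 1.02%, none of them the brightest probe of a member, and the lowest adjusted p of the family was 0.120, for FARSB.

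**Figure D3:**
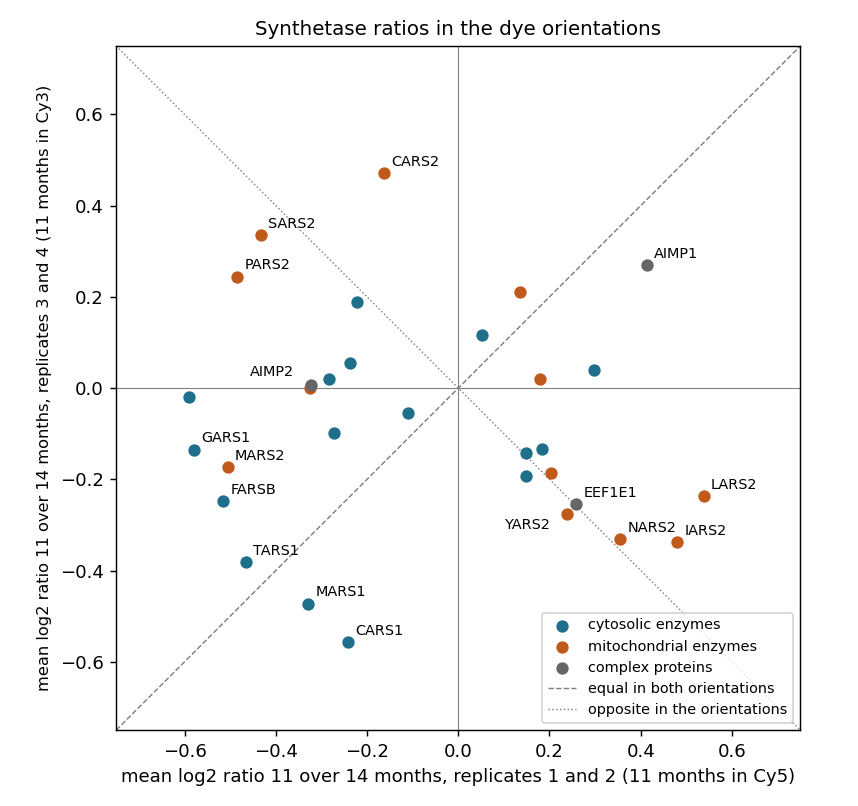
Mean log2 ratio (11 over 14 months, no unit) of each of the 31 genes in replicates 1 and 2 (horizontal axis) and in replicates 3 and 4 (vertical axis), coloured by group; the dashed line marks equal and the dotted line opposite values. The 6 genes with unadjusted p under 0.05 lie in the lower left, where TARS1 is at -0.46 and -0.38, and mitochondrial enzymes such as IARS2, at 0.48 and -0.34, lie near the dotted line.

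Other genes that work with tRNA were taken as lists. Of 10 measured partners of tRNA charging, such as the enzymes that correct or modify charged tRNA, 1 was higher at 14 months at an unadjusted p under 0.05 and 0 at 11 months, beside 4.21% of all named genes higher at 14 months, so that nothing is read from this count. The gene was MTFMT, which formylates the initiator methionyl-tRNA in mitochondria, at -0.25, -0.34, -0.23 and -0.30, a mean of -0.28 ± 0.05 with an adjusted p of 0.522 in limma. Its heifers lay closer together than those of any synthetase of the 31. SEPSECS, of selenocysteine synthesis, was at 0.13 ± 0.11, and QRSL1, a subunit of the mitochondrial amidotransferase that makes glutaminyl-tRNA, at -0.14 ± 0.15.

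Of 20 measured genes of tRNA maturation and export 2 were higher at 14 months at that limit and 0 at 11 months, again beside 4.21% of named genes. SSB, the La protein that binds the ends of new polymerase III transcripts, was at -0.09, -0.41, -0.69 and -0.54, with a mean of -0.43 ± 0.26 and an adjusted p of 0.401 in limma. RPP21, a subunit of ribonuclease P and the other of these 2 genes, was at -0.42 ± 0.48, and RPP30, another subunit, at -0.29 ± 0.47. Of 17 measured genes of RNA polymerase III transcription 1 was higher at 14 months and 0 at 11 months, a share near the 4.21% of named genes. This was MAF1, a repressor of polymerase III, at -0.12, -0.80, -0.94 and -0.07, a mean of -0.48 ± 0.45 with an adjusted p of 0.453 in limma. POLR3F, a polymerase subunit, was at 0.32 ± 0.29 and GTF3A, a factor of 5S RNA transcription, at -0.28 ± 0.25. The means of array medians of the 3 lists were -0.03 ± 0.16, -0.03 ± 0.15 and -0.05 ± 0.07.

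The amino acid response, the pathway through which uncharged tRNA leads by the kinase GCN2 to more ATF4, had 3 of 9 measured genes higher at 14 months at an unadjusted p under 0.05 and 0 at 11 months, beside 4.21% of named genes higher at 14 months. ATF4 itself was at -0.28, -0.97, -0.85 and 0.11 in replicates 1 to 4, with a mean of -0.50 ± 0.50 and an adjusted p of 0.465 in limma. It was highest at 14 months relative to 11 months in replicates 2 and 3, the heifers with the lowest TARS1, MARS1 and CARS1 ratios. FARSB, GARS1 and MARS2 had their lowest ratios in replicates 1 and 2 instead. A link between ATF4 and the synthetases was not tested. ASNS, which makes asparagine, was at -1.003, -1.04, -0.48 and -0.06, a mean of -0.65 ± 0.47 with an adjusted p of 0.355 in limma. CHAC1, a glutathione-degrading enzyme and a target of ATF4, was at -1.61, -1.99, -0.45 and 0.29, a mean of -0.94 ± 1.05 with an adjusted p of 0.432 in limma. Both genes differed between the dye orientations: CHAC1 was at -1.80 in replicates 1 and 2 and -0.08 in replicates 3 and 4, and ASNS at -1.02 and -0.27. In all, 3 of the 9 genes, these and ATF3, had an unadjusted p under 0.05 for orientation, and CHAC1 passed adjustment, with an adjusted p of 0.024 in limma. ATF4 was at -0.62 and -0.37, with an adjusted p for orientation of 0.702. The part of orientation in the age values of the list was not tested. The list had medians of -0.28, -0.72, -0.28 and 0.11.

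**Figure D4:**
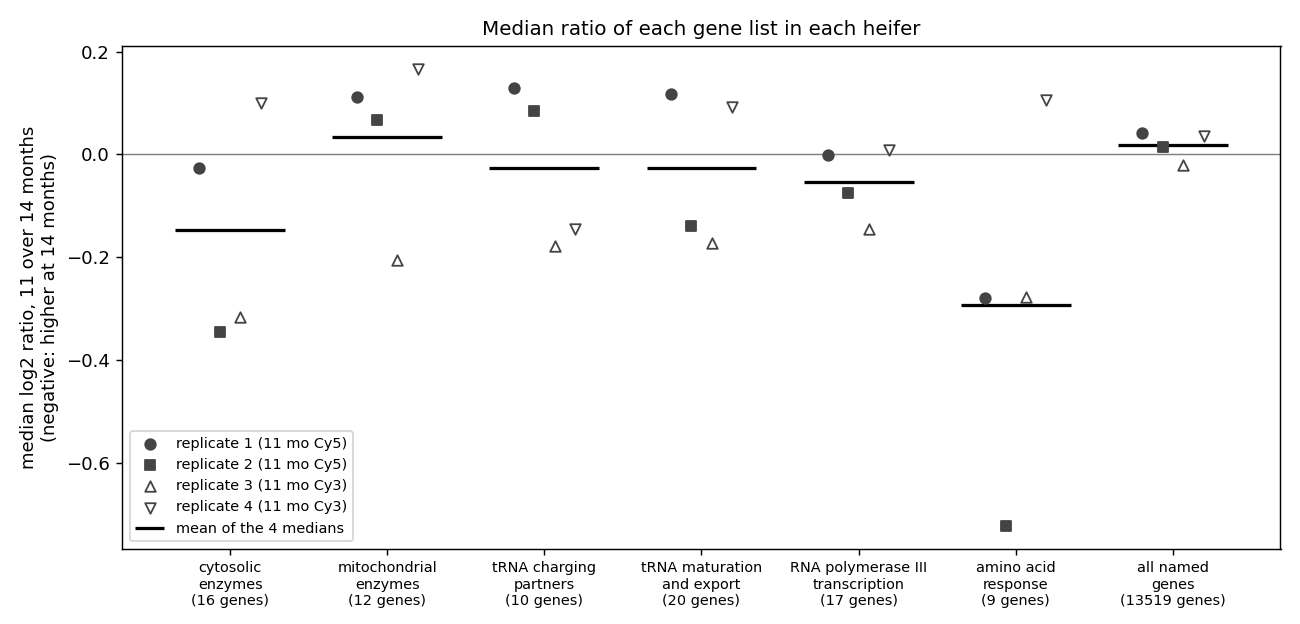
Median log2 ratio (vertical axis, 11 over 14 months, no unit) of each gene list in each heifer, with filled symbols for arrays with the 11-month pool in Cy5, open symbols for those with it in Cy3, and bars for the mean of the 4 medians. The cytosolic enzymes are at -0.35 and -0.32 in replicates 2 and 3 and the amino acid response at -0.72 in replicate 2, while all named genes stay between -0.02 and 0.04.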

How the data were processed

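The members and gene lists were chosen with earlier results of these data known. Per the labels' protocols, RNA of pooled embryos was amplified linearly and labelled with Cy3 or Cy5. The authors deposited normalized log2 ratios in a series matrix and in a table of Cy5 over Cy3, equal to it within 5e-06 once the sign is turned on replicates 3 and 4. No label or header names their normalization. Against log2 ratios of the deposited scanner intensity values (spot and background medians, normexp with offset 50, loess), the matrix had correlations of 0.914 to 0.989 and slopes of 1.07 to 1.39, so that it was read as base 2. Its column medians were 0.00853, 0.00336, 0.00104 and 0.0234. How the authors corrected background and centred is unknown.

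A probe was tested if its mean log2 scanner signal exceeded a limit of 2 SD over the mean of the 153 negative controls; 7347 of 43794 did not. The matrix ratios were fitted with limma 3.58.1 in R 4.3.3, as the mean over 4 arrays, with two-sided tests and Benjamini-Hochberg adjustment over 36447 probes (3 residual and 5.98 prior degrees of freedom). The number of arrays limits precision, and an exact sign-flip test of 4 values cannot go below p = 0.125. The ratio pairs both pools of a heifer. Channel signals are log2 values after loess within arrays, not scaled between arrays. A pool was above the limit where its signal exceeded 2 SD over the mean of the negative controls in that channel of that array. These limits therefore differ between pools.

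Symbols are those of the platform annotation at GEO: 21790 probes have 1, 0 have several and 22004 have none; 20025 symbols were current in the ARS-UCD2.0 table, 1524 were updated and 241 kept. No build is given for the array design, so that no coordinates are printed. Values in each heifer are given for members with p under 0.05, for the 3 highest and 3 lowest means among cytosolic and mitochondrial enzymes, and for the complex proteins; of each pathway list the 3 genes with the smallest p are named. Other members were named after their values were seen. The fits were tested on simulated data. Plots used matplotlib 3.10.9 under Python 3.11.15.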

Additional observations from a re-analysis of the deposited data

Results flagged for a closer look

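Of 34 results checked for a heifer far from the other 3, 1 stood out. AARS1, the alanine enzyme, was at -0.63 in replicate 3, against 0.12 to 0.24 in the other heifers. Its dimmer probe was at 0.16 in that heifer. Chance alone flags about 1 in 20 groups.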

How the results depend on the processing

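The number of arrays limits every value. With scanner signals and median centring, 1 of 31 members had an unadjusted p under 0.05, the cytosolic FARSB, and without a replicate block 0 had, cytosolic ones included, though the ratios pair the pools of a heifer. With a gene-specific dye term, 1 member was higher at 11 months, AIMP1, and 373 of all probes passed an adjusted p of 0.05 for age, against 23 without a replicate block. Leaving out 1 heifer gave 0 to 8 members past the unadjusted limit, 0 to 7 higher at 14 months (0 to 6 cytosolic) and 0 to 1 higher at 11 months, and 0 probes past adjustment. It gave medians of -0.23 to -0.08 for the cytosolic and -0.01 to 0.12 for the mitochondrial enzymes, and a difference of -0.22 to -0.11. The orientation term passed adjustment for 869 probes, for 513 with normexp and loess, 1926 with median centring, 358 with only probes above the limit in both channels of all 4 arrays, and 81 to 615 without 1 heifer. The cause was not tested.

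Within replicates 1 and 2 the difference was -0.28, and within replicates 3 and 4 it was -0.09, alternatives added after seeing the data. Since the difference was below 0 in each heifer, the sign of these means was fixed in advance. Of 219 values of 17 single genes under 13 alternatives, 191 stayed on their side of the limit and within their spread. Another 25 lost and 3 gained an unadjusted p under 0.05, and 0 turned round a called direction. Only the 6 genes called in the main fit had such a direction. Several alternatives, such as the dye term, the unpaired fit and the changed filters, leave a ratio as it was. These can change only the p-value, so that part of this tally was fixed in advance. The same 6 genes had an unadjusted p under 0.05 with normexp and loess, with background subtraction and with centred matrix columns. They also did with no filter and with the mean over all probes of a gene. Each of the 6 genes had only 1 probe, so that these last settings could not change its ratio.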
